A study of Mus musculus with 8 samples.

Results

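Matrix metalloproteinases (MMPs), ADAMs, ADAMTSs with the related ADAMTS-like proteins (ADAMTSLs), and the tissue inhibitors of metalloproteinases (TIMPs) were examined in cardiac fibroblasts of WT mice and of mice in which Pdgfra-Cre acts on floxed Lmna alleles. Members were taken by gene symbol, as every listed gene whose name starts with Mmp, Adam or Timp followed by a digit, or with Adamts. This gave 76 of the 18957 genes listed, namely 21 MMPs, 27 ADAMs, 19 ADAMTSs, 5 ADAMTSLs and 4 TIMPs. Of these, 53 passed the filter on low counts and were tested.

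The libraries were made from ribosome-depleted total RNA of living, hematopoietic lineage-negative, PDGFRA+ cells, which were sorted by FACS after the ventricles of C57BL/6 (mixed) mice aged 3 to 4 weeks had been dissociated with collagenase. There were 4 WT libraries and 4 Pdgfra-Cre:LmnaF/F libraries, the latter from mice with both Lmna alleles floxed at exon 2 and a Pdgfra-Cre BAC transgene. WT littermates carried neither the floxed alleles nor Cre, so effects of Cre itself and of the Lmna deletion cannot be told apart, and the Pdgfra locus is also active in some developing cardiac myocytes. Nothing in the labels says that each library is a separate mouse, and p-values therefore measure the spread between these libraries.

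Lmna, which encodes lamin A/C of the nuclear lamina, was at 274 to 483 CPM (counts scaled to library size) in WT libraries and 90.4 to 130 CPM in Pdgfra-Cre:LmnaF/F libraries (edgeR log2 fold change -1.72, SE 0.22, adjusted p = 0.00492). Total counts ranged from 2080555 in WT library 2 to 12502949, and fibroblast markers (Pdgfra, Col1a1, Dcn and 6 others) summed to 81870 to 98867 CPM over all 8 libraries. Pdgfra-Cre:LmnaF/F library 4 stood apart in cardiac myocyte markers, at 5699 CPM against 296 to 1020 CPM in the other libraries, and in macrophage and monocyte markers, at 443 CPM against 43.8 to 177 CPM. Y-linked transcripts (Ddx3y, Kdm5d, Eif2s3y and Uty) summed to 143 to 273 CPM in WT libraries 1, 2 and 4 and in Pdgfra-Cre:LmnaF/F library 4, and to no more than 1.96 CPM in the other 4 libraries, so libraries with and without these transcripts were unevenly divided between the genotypes. Early response genes that tissue dissociation can induce (17 genes, among them Fos, Junb and Egr1) summed to 2210 to 5606 CPM in WT and to 7996 to 13182 CPM in Pdgfra-Cre:LmnaF/F libraries, without overlap (exact two-sided permutation p = 0.0286, the smallest that 4 against 4 libraries allow, and 0.143 after Benjamini-Hochberg adjustment over 10 lists). Neutrophil markers were near the detection limit, at 0.320 to 2.52 CPM in WT and 2.69 to 7.17 CPM in Pdgfra-Cre:LmnaF/F libraries, with the same exact p and adjusted p, and the other 8 marker lists had adjusted p-values of 0.286 to 0.8 in the exact permutation test. Their part in the differences given for the metalloproteinases was not tested. In bulk libraries such as these, fewer cells of a kind and less RNA per cell cannot be told apart.

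MMPs, ADAMs and ADAMTSs share a domain of the metzincin type. Most are zinc-dependent endopeptidases made as inactive precursors, though some ADAMs lack the catalytic zinc site. MMPs cleave collagens and other matrix proteins, ADAMs mainly release the outer parts of membrane proteins, and secreted ADAMTSs process procollagens, proteoglycans and microfibril proteins, whereas ADAMTSLs lack the protease domain. TIMPs bind the active sites of many of these enzymes. Cardiac fibroblasts are a main source of matrix and of the enzymes that remodel it in the heart.

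No member passed the threshold of an adjusted p under 0.05 in edgeR's quasi-likelihood test, which called 0.407% of the 13036 genes tested. At an unadjusted p under 0.05, which 11.9% of all genes met, 2 of the 53 tested members were higher in Pdgfra-Cre:LmnaF/F fibroblasts, Adamts1 and Timp1, beside 6.24% of all genes, and 11 were lower, beside 5.65% of all genes. The 11 were Adam17, Adam19, Adamts10, Adamts12, Adamts14, Adamts17, Adamtsl2, Adamtsl4, Adamtsl5, Mmp15 and Timp2. All libraries of one genotype lay above those of the other for Adamts1 and Mmp24, which were higher (beside 4.06% of all genes, and Mmp24 passed the filter on low counts only through the libraries where it was high), and for Adam17, Adam19, Adamts10, Mmp15 and Timp2, which were lower (beside 3.97%). DESeq2 called 7 members (beside 2.15% of all genes), Adamts1 and Timp1 as higher (0.935% of all genes were called higher) and Adam17, Adam19, Adamts17, Adamtsl2 and Timp2 as lower (1.22% called lower). The same test with 1 factor of unwanted variation called these without Adamtsl2 (2.7% of all genes), and limma-voom called Adam19, Adamts1 and Adamtsl2 (0.967%). Without the filter on low counts edgeR called 5 of the 76 members, Adam19, Adamts1, Adamts17, Adamtsl2 and Timp1 (1.45%). Over the 53 tested members the median log2 fold change was -0.03, beside 0.02 over all genes tested, and 28 were below 0 and 25 above.

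**Figure D1:**
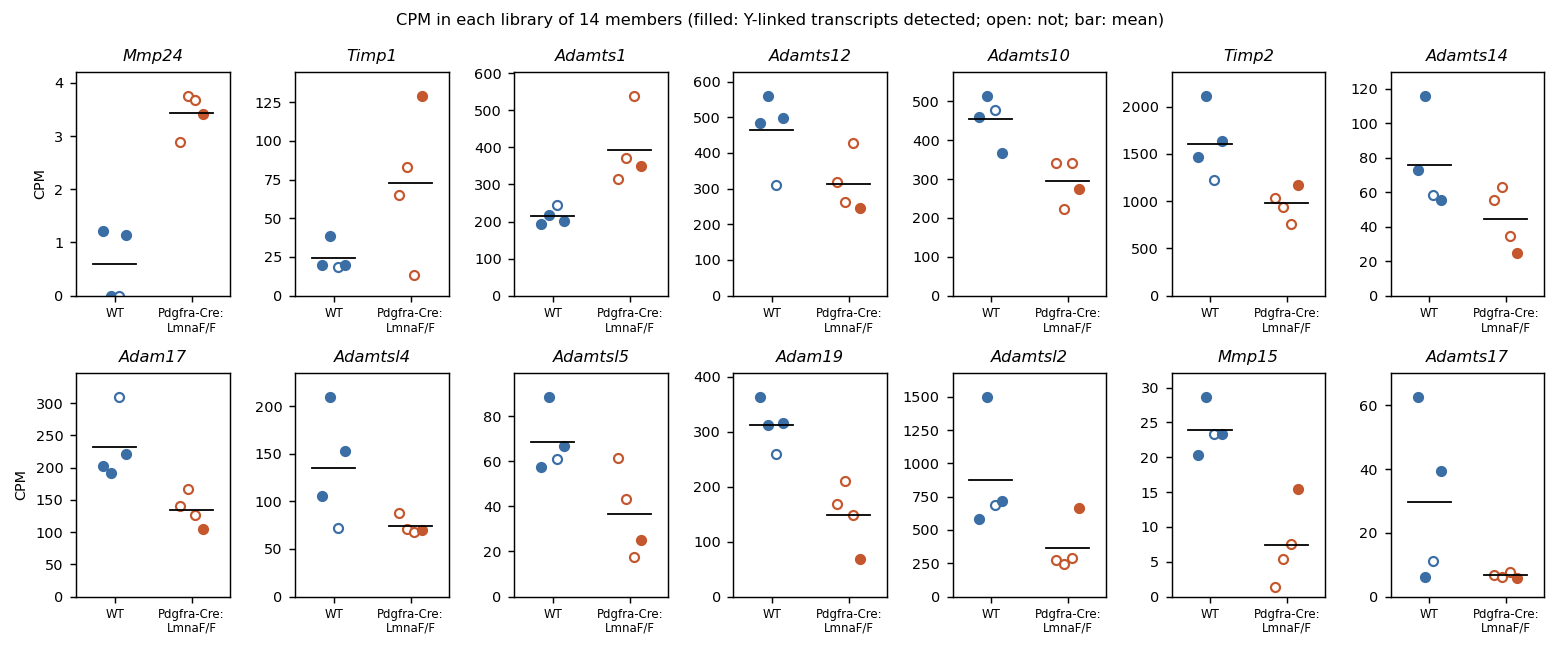
CPM (vertical axes, each from 0) of the 14 members with an unadjusted p under 0.05 or with groups that did not overlap, 1 point per library, with the mean of each genotype as a bar; filled points are libraries with Y-linked transcripts. Adamts1 and Mmp24 lie wholly higher in Pdgfra-Cre:LmnaF/F libraries, and Adam17, Adam19, Adamts10, Mmp15 and Timp2 wholly lower.

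In levels per length (RPKM, CPM per kb of exon), which allow members to be compared with each other, Mmp2 was the most abundant, at 981 ± 169 RPKM in WT and 804 ± 45.8 RPKM in Pdgfra-Cre:LmnaF/F fibroblasts (SD, n = 4 each). Timp2 came next, at 413 ± 97.1 and 250 ± 45.3 RPKM. In WT these were followed by Adamts2 at 119 RPKM, Adamtsl2 at 109 RPKM, Mmp14 at 84.3 RPKM, Mmp23 at 82.0 RPKM and Adamts5 at 73.7 RPKM, and the WT libraries of each of these 5 overlapped with those of at least one other. The fibroblasts thus held at high level the gelatinase Mmp2, the membrane-bound collagenase Mmp14 and the inhibitor Timp2, whose proteins together form the complex that activates pro-MMP2 at the cell surface.

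**Figure D2:**
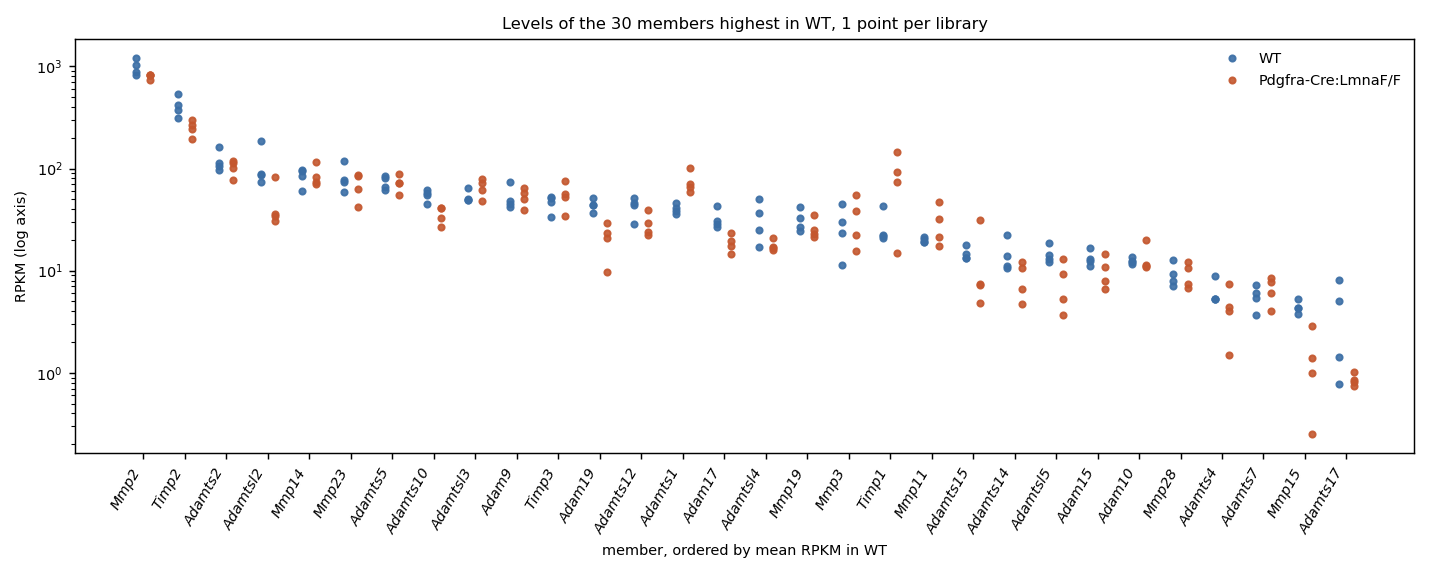
RPKM (log axis) of the 30 members with the highest mean in WT, in that order, 1 point per library. Mmp2 lies above all others in every library, and Timp1 spreads from 14.9 to 145 RPKM among Pdgfra-Cre:LmnaF/F libraries.

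Among gelatinases, which digest denatured collagen and type IV collagen, Mmp2 was at 4049, 2990, 2753 and 3443 CPM in WT libraries 1 to 4 and at 2782, 2782, 2479 and 2799 CPM in Pdgfra-Cre:LmnaF/F libraries 1 to 4. WT library 3 lay below 3 of the 4 Pdgfra-Cre:LmnaF/F libraries, and the groups overlapped (log2 fold change -0.29, SE 0.20, edgeR adjusted p = 0.634). Mmp2 made up 72.9% to 82.7% of the summed RPKM of all MMPs in WT libraries and 71.2% to 78.3% in Pdgfra-Cre:LmnaF/F libraries. Mmp9, the gelatinase of leukocytes, was at or below 3.02 CPM in every library.

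The membrane-type MMPs sit at the cell surface. Mmp14, the main one in these cells, ranged from 356 to 578 CPM in WT and from 424 to 694 CPM in Pdgfra-Cre:LmnaF/F libraries (log2 fold change 0.03, SE 0.23), with a 95% confidence interval of -0.45 to 0.52. Mmp15, a less abundant relative of Mmp14 at chr8:95352268-95375080 (GRCm38), was at 20.3, 28.7, 23.3 and 23.3 CPM in WT and at 1.35, 5.42, 7.60 and 15.4 CPM in Pdgfra-Cre:LmnaF/F libraries. Every Pdgfra-Cre:LmnaF/F library lay below every WT library, a 3.18-fold lower level (log2 fold change -1.67, SE 0.55, edgeR adjusted p = 0.22), and library 4, with the most cardiac myocyte signal, was the highest of the 4. Without library 4 the log2 fold change of Mmp15 was -2.32. The log2 difference of Mmp15 was -2.17 among libraries without Y-linked transcripts and -0.63 among those with them. Here and below, WT library 3 is the only WT library without these transcripts, and library 4 the only Pdgfra-Cre:LmnaF/F library with them. Mmp24 was near the detection limit, with 2 WT libraries at 0 and the other two at 1.14 and 1.21 CPM, against 2.90 to 3.75 CPM in Pdgfra-Cre:LmnaF/F libraries, through which alone it passed the filter on low counts (log2 fold change 2.38, SE 1.29, edgeR adjusted p = 0.506). Mmp16 and Mmp17 overlapped between the genotypes, with log2 fold changes of 0.34 (SE 0.49) and -0.87 (SE 0.47).

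The chromosome 9 cluster holds collagenases, stromelysins and macrophage elastase, and of these Mmp3 was the most abundant, at 27.4 RPKM in WT, with the others at or below 1.17 RPKM. Of its 8 listed genes, which span from Mmp13 at chr9:7272514-7283331 to Mmp7 at chr9:7692090-7699585, 3 passed the filter on low counts. Mmp3, stromelysin 1, was at 54.5, 41.8, 80.7 and 20.3 CPM in WT and 28.3, 40.7, 68.6 and 98.2 CPM in Pdgfra-Cre:LmnaF/F libraries, ranges that overlapped (log2 fold change 0.26, SE 0.41, edgeR adjusted p = 0.874). Mmp12, macrophage elastase, reached 21.7 CPM in Pdgfra-Cre:LmnaF/F library 4, the library with the most macrophage signal, and stayed at or below 1.96 CPM in the other 7 libraries. Its log2 fold change was 2.80 (SE 1.52) with that library and 0.46 without it. Mmp13, collagenase 3, had 2 counts in 1 WT library and 28 in 1 Pdgfra-Cre:LmnaF/F library, and 0 in the other 6.

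A start with the AP-1 motif, the site bound by FOS and JUN dimers, was found for 5 of the 8 genes of this cluster (Mmp1b, Mmp3, Mmp7, Mmp12 and Mmp13) and not for Mmp8, Mmp20 or Mmp27, and those of Mmp3, Mmp12 and Mmp13 are shown. Mmp7 and Mmp12 each have a further start without the motif. The bases shown for Mmp12 lie inside its GENCODE gene span, chr9:7344381-7369499, and its start without the motif lies at the beginning of that span. The sequences are the 140 bases before the start from RefSeq (GRCm38.p6), on the strand of the gene, with AP-1 motifs (TGACTCA or its reverse complement TGAGTCA) and TATAAA in capitals:
Mmp3 (chr9:7445682-7445821, plus strand): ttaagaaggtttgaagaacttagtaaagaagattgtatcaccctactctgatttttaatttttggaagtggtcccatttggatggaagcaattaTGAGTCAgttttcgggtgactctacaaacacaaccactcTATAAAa
Mmp12 (chr9:7347234-7347373, plus strand): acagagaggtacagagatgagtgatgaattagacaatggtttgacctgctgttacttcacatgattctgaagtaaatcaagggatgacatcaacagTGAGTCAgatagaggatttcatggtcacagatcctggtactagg
Mmp13 (chr9:7272374-7272513, plus strand): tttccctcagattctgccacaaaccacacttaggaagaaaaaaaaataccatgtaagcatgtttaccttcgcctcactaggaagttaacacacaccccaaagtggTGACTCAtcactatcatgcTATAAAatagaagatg

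Of the 76 members, 46 had an entry in the promoter table, with 51 starts among them. The AP-1 motif was found within 250 bases before to 50 bases after the start at 7 of these 51, those of Mmp1b, Mmp3, Mmp7, Mmp12, Mmp13, Adam1b and Adam19, beside 5.20% of all 32851 promoters. TATAAA, searched on the strand of the gene only, was found at 9 of the 51, beside 8.32% of all promoters. Of the other motifs searched on both strands, the GC box (GGGCGG or CCGCCC) was found at 27 of the 51, beside 35.7% of all promoters, and the cyclic AMP response element (TGACGTCA) at 0, beside 1.79%. Among the 7 members with the AP-1 motif, only Mmp3, Mmp12 and Adam19 were tested, at log2 fold changes of 0.26, 2.80 and -1.07. Fos itself was at 145 to 922 CPM in WT and 1438 to 2472 CPM in Pdgfra-Cre:LmnaF/F libraries (log2 fold change 1.80, edgeR adjusted p = 0.0757), and Fosb and Junb also did not overlap, whereas Jun overlapped and Jund was at -0.04 on the log2 fold change scale.

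Of the other MMPs, Mmp11, stromelysin 3, was at 52.7 to 58.9 CPM in WT and at 59.6, 48.8, 89.3 and 129 CPM in Pdgfra-Cre:LmnaF/F libraries (log2 fold change 0.57, SE 0.28, edgeR adjusted p = 0.445). Mmp23, a type II membrane enzyme, spread from 136 to 278 CPM in WT and from 97.3 to 201 CPM in Pdgfra-Cre:LmnaF/F libraries, and the groups overlapped (log2 fold change -0.26, SE 0.27).

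Of 8 tested ADAM sheddases, 2 were lower at an unadjusted p under 0.05 (beside 5.65% of all genes) and 6 did not pass that limit. Adam10, which sheds Notch receptors and cadherins, was at 57.0 to 66.4 CPM in WT and at 55.7, 98.8, 55.1 and 53.9 CPM in Pdgfra-Cre:LmnaF/F libraries (log2 fold change 0.11, SE 0.24, 95% confidence interval -0.39 to 0.62). Adam9 had the highest mean RPKM of the ADAMs, 52.4 in WT and 52.5 in Pdgfra-Cre:LmnaF/F fibroblasts, though its WT range of 41.9 to 74.5 RPKM overlapped with that of Adam19, 36.4 to 51.1 RPKM (Adam9 log2 fold change 0.01, SE 0.23).

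Adam17, the enzyme that sheds TNF and several ligands of the EGF receptor and lies at chr12:21323509-21373632, was at 203, 192, 310 and 221 CPM in WT and at 141, 167, 126 and 105 CPM in Pdgfra-Cre:LmnaF/F libraries. All 4 Pdgfra-Cre:LmnaF/F libraries were below all WT libraries, a 1.72-fold lower level (log2 fold change -0.78, SE 0.22, edgeR adjusted p = 0.147). With Y-linked expression as a covariate, chosen after the data were seen, the log2 fold change was -1.003 and the edgeR adjusted p = 0.0316, in a fit that called 0.875% of all genes. Among libraries without Y-linked transcripts (1 WT and 3 Pdgfra-Cre:LmnaF/F) the log2 difference of mean CPM was -1.10, and among those with them (3 WT and 1 Pdgfra-Cre:LmnaF/F) it was -0.97. The RPKM of Adam17 was 1.99 to 3.46 times that of Adam10 in WT libraries and 1.16 to 1.74 times in Pdgfra-Cre:LmnaF/F libraries, without overlap.

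Adam19, also called meltrin beta, an enzyme needed for heart valve and septum development, lies at chr11:46055992-46147343 and was at 363, 313, 259 and 315 CPM in WT and at 168, 211, 148 and 68.5 CPM in Pdgfra-Cre:LmnaF/F libraries. The groups did not overlap, the level was 2.10-fold lower (log2 fold change -1.07, SE 0.28, edgeR adjusted p = 0.13), and library 4 was the lowest. The log2 difference was -0.56 among libraries without Y-linked transcripts and -2.26 among those with them. Adam19 has further starts without an AP-1 motif. The start of Adam19 that carries an AP-1 motif is shown for comparison with those of the MMP cluster, again as 140 bases from RefSeq (GRCm38.p6):
Adam19 (chr11:46055844-46055983, plus strand): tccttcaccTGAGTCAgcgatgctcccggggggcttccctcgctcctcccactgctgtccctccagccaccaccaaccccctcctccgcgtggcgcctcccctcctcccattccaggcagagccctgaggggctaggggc

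Of the remaining sheddases, Adam12, or meltrin alpha, was at 9.43 to 21.6 CPM in WT and 4.14 to 9.59 CPM in Pdgfra-Cre:LmnaF/F libraries, overlapping by 1 library of each genotype (log2 fold change -0.998, SE 0.49, edgeR adjusted p = 0.452). Adam15 overlapped between the genotypes at a log2 fold change of -0.40 (SE 0.26). Adam8 and Adam33 were at or below 9.17 and 6.05 CPM in every library. Of the 15 listed ADAMs known from the testis and epididymis, 3 passed the filter, and none of the 15 had more than 68 counts in a library. Adam1a shares 63.7% of its exonic bases with other genes on its strand, and its counts cannot be assigned to it alone.

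Adamts1, which cleaves versican and aggrecan, had the lowest edgeR p of all members. It lies at chr16:85793827-85803113 and was at 192, 216, 244 and 202 CPM in WT and at 315, 371, 539 and 350 CPM in Pdgfra-Cre:LmnaF/F libraries. Every Pdgfra-Cre:LmnaF/F library was above every WT library, a 1.84-fold higher level (log2 fold change 0.88, SE 0.21, 95% confidence interval 0.43 to 1.33, edgeR adjusted p = 0.0987). The highest value was in Pdgfra-Cre:LmnaF/F library 3, which was also highest in the summed early response genes, at 13182 CPM. The log2 difference was 0.74 among libraries without Y-linked transcripts and 0.78 among those with them. Adamts1 is shown with the 140 bases before its start (RefSeq, GRCm38.p6), which hold TATAAA, in capitals, and no AP-1 motif:
Adamts1 (chr16:85803114-85803253, minus strand): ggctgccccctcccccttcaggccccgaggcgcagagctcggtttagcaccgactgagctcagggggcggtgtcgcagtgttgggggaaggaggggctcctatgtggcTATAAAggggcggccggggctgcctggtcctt

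Adamts5, the aggrecanase gene 53059 bases from Adamts1 on the same chromosome, ranged from 672 to 915 CPM in WT and from 601 to 944 CPM in Pdgfra-Cre:LmnaF/F libraries (log2 fold change -0.03, SE 0.21, 95% confidence interval -0.47 to 0.41). The RPKM of Adamts1 was 0.469 to 0.740 times that of Adamts5 in WT and 0.754 to 1.83 times in Pdgfra-Cre:LmnaF/F libraries, and these ranges did not overlap.

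The other proteoglycan-cleaving ADAMTSs overlapped between the genotypes. Adamts4 was at a log2 fold change of -0.52 (SE 0.40) and Adamts9 at 0.40 (SE 0.47). Adamts15 was at 77.0, 75.1 and 50.4 CPM in Pdgfra-Cre:LmnaF/F libraries 1 to 3, below the 137 to 183 CPM of WT, but at 323 CPM in library 4. Its log2 fold change was -0.21 (SE 0.44) with all libraries, and it passed the edgeR threshold without library 4, at -1.17.

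**Figure D3:**
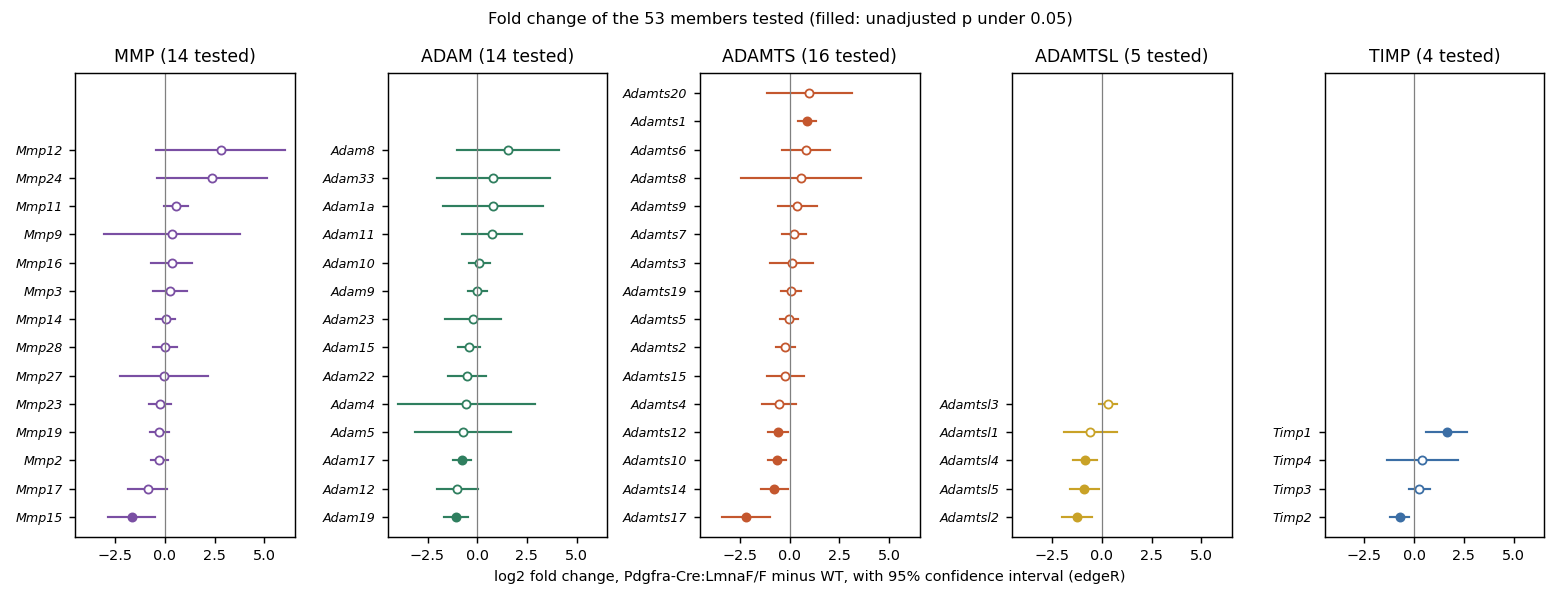
Log2 fold change (Pdgfra-Cre:LmnaF/F minus WT, horizontal axes) with 95% confidence interval from edgeR for the 53 members tested, by family; filled points have an unadjusted p under 0.05. The 3 filled ADAMTSLs and Adamts10, Adamts17, Timp2 and Mmp15 lie below 0, whereas Adamts1 and Timp1 lie above it.

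Procollagen N-proteinases, which remove the amino-terminal propeptides of fibrillar collagens, were led by Adamts2, at 895 to 1504 CPM in WT and 721 to 1097 CPM in Pdgfra-Cre:LmnaF/F libraries (log2 fold change -0.21, SE 0.22, edgeR adjusted p = 0.806). Adamts14 was at 55.4 to 116 CPM in WT and at 24.5 to 63.1 CPM in Pdgfra-Cre:LmnaF/F libraries, with overlap (log2 fold change -0.76, SE 0.32, edgeR adjusted p = 0.364), and its log2 differences were -0.19 and -1.71 among libraries without and with Y-linked transcripts. Adamts3 was low, at or below 17.3 CPM.

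ADAMTSs and ADAMTSLs that associate with fibrillin microfibrils, a group put together with the values known, had 6 tested members, of which 5 were lower at an unadjusted p under 0.05 (beside 5.65% of all genes, with nothing to be read from a group chosen in this way) and 1, Adamts6, was at a log2 fold change of 0.83 (SE 0.57). Mutations in several of them cause short stature syndromes or a displaced lens. Fbn1, which encodes fibrillin 1, was at a log2 fold change of -0.80 (SE 0.26, edgeR adjusted p = 0.222), with overlap. Fbn2, which encodes fibrillin 2, was at 0.26 (SE 0.39) and also overlapped.

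Adamtsl2, which binds fibrillin 1 and the TGF-beta binding protein LTBP1, lies at chr2:27079379-27108981 and was at 584, 1499, 690 and 714 CPM in WT and at 272, 246, 289 and 661 CPM in Pdgfra-Cre:LmnaF/F libraries. Libraries 1 to 3 lay below all WT libraries and library 4 among them (2.37-fold lower, log2 fold change -1.25, SE 0.35, edgeR adjusted p = 0.16). Without library 4 the log2 fold change was -1.69 and the edgeR adjusted p = 0.0191, beside 0.565% of all genes called in that fit. WT library 2, the shallowest, was the highest of the 8. The log2 difference was -1.36 among libraries without Y-linked transcripts and -0.50 among those with them.

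Adamts10 lies at chr17:33524204-33553782 and was at 459, 514, 479 and 367 CPM in WT and at 342, 222, 341 and 274 CPM in Pdgfra-Cre:LmnaF/F libraries. The groups did not overlap (log2 fold change -0.63, SE 0.21, edgeR adjusted p = 0.225), with log2 differences of -0.67 and -0.71 among libraries without and with Y-linked transcripts. Adamts17 was at 62.7, 6.04, 11.2 and 39.3 CPM in WT and at 6.62, 6.26, 7.83 and 5.83 CPM in Pdgfra-Cre:LmnaF/F libraries. Its difference (log2 fold change -2.19, SE 0.57, edgeR adjusted p = 0.13) came with high values in WT libraries 1 and 4 and was -1.53 without WT library 1, while WT library 2 lay within the Pdgfra-Cre:LmnaF/F range. For Adamts17 the log2 difference was -0.66 among libraries without Y-linked transcripts and -2.53 among those with them.

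Adamtsl4 was at 106, 210, 71.6 and 153 CPM in WT and at 67.3 to 87.4 CPM in Pdgfra-Cre:LmnaF/F libraries, with WT library 3 inside that range (log2 fold change -0.86, SE 0.28, edgeR adjusted p = 0.209). WT library 3, the WT library without Y-linked transcripts, was also the lowest for Adamts12, a protease of cartilage oligomeric matrix protein, which was at 483, 560, 310 and 499 CPM in WT and at 246 to 427 CPM in Pdgfra-Cre:LmnaF/F libraries (log2 fold change -0.56, SE 0.24, edgeR adjusted p = 0.367). Among libraries without Y-linked transcripts the log2 differences of Adamtsl4 and Adamts12 were 0.07 and 0.11, against -1.16 and -1.06 among those with them. The former rest on 1 WT library, and the latter on 1 Pdgfra-Cre:LmnaF/F library, library 4. Adamtsl5 was at 57.4 to 88.6 CPM in WT and at 61.4, 43.4, 17.4 and 25.1 CPM in Pdgfra-Cre:LmnaF/F libraries, with overlap (log2 fold change -0.89, SE 0.34, edgeR adjusted p = 0.309), and its log2 differences were -0.57 and -1.48 among libraries without and with Y-linked transcripts. Adamtsl3 was at 0.30 (SE 0.21) and Adamtsl1 at -0.58 (SE 0.62) on the log2 fold change scale, and both overlapped.

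Of the 4 TIMPs, Timp1 was higher and Timp2 lower at an unadjusted p under 0.05 (beside 6.24% and 5.65% of all genes), and none passed the edgeR threshold. Timp2, at chr11:118301069-118355740, was at 1461, 2113, 1218 and 1637 CPM in WT and at 1032, 939, 754 and 1175 CPM in Pdgfra-Cre:LmnaF/F libraries. The groups did not overlap, and the level was 1.65-fold lower (log2 fold change -0.72, SE 0.23, edgeR adjusted p = 0.202), with log2 differences of -0.42 and -0.56 among libraries without and with Y-linked transcripts.

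Timp1, an inducible inhibitor on the X chromosome (chrX:20870166-20874735), was at 19.9, 38.2, 18.5 and 19.5 CPM in WT and at 65.3, 83.0, 13.2 and 129 CPM in Pdgfra-Cre:LmnaF/F libraries. Of the 4 Pdgfra-Cre:LmnaF/F libraries 3 were above all WT libraries and library 3 was below them (3.09-fold higher, log2 fold change 1.63, SE 0.49, edgeR adjusted p = 0.192). Without library 3 the log2 fold change was 1.98 and the edgeR adjusted p = 0.035, beside 0.125% of all genes called in that fit, and that library was the highest in early response genes. The log2 difference was 1.51 among libraries without Y-linked transcripts and 2.30 among those with them. The promoters of both are shown as those of the 2 TIMPs with the lowest edgeR p, and neither holds an AP-1 motif or TATAAA in these 140 bases (RefSeq, GRCm38.p6). The bases shown for Timp2 lie inside the gene span printed above, which is that of GENCODE:
Timp1 (chrX:20870026-20870165, plus strand): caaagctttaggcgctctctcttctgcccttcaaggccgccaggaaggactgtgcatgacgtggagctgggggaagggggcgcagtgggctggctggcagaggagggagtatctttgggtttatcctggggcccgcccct
Timp2 (chr11:118355412-118355551, minus strand): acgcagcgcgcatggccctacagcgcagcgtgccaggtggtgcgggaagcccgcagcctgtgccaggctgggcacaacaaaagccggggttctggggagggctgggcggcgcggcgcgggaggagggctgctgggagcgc

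Timp3, a matrix-bound inhibitor that also blocks ADAM17 and aggrecanases, was at 276 to 429 CPM in WT and 277 to 617 CPM in Pdgfra-Cre:LmnaF/F libraries (log2 fold change 0.25, SE 0.24, edgeR adjusted p = 0.773). Timp4, the TIMP known for its high level in heart tissue, was at or below 23.5 CPM in these sorted cells (log2 fold change 0.41, SE 0.84). Timp2 made up 84.2% to 85.0% of the summed RPKM of the 4 TIMPs in WT libraries and 59.4% to 67.5% in Pdgfra-Cre:LmnaF/F libraries, which did not overlap. Of 4 ratios of RPKM between members that were computed, those of Adam17 to Adam10 and Adamts1 to Adamts5 did not overlap between the genotypes and the other two did. The RPKM of Timp1 was 0.0522 to 0.0794 times that of Timp2 in WT and 0.0771 to 0.482 times in Pdgfra-Cre:LmnaF/F libraries, and that of Timp2 was 0.312 to 0.611 and 0.263 to 0.363 times that of Mmp2.

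**Figure D4:**
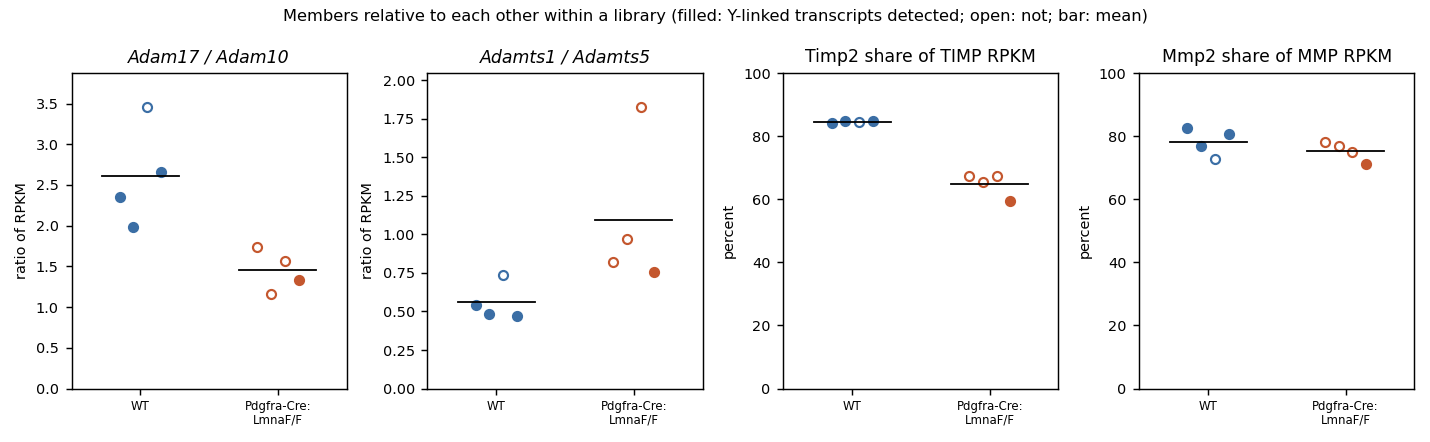
RPKM of one member relative to another, or as a percent of its family, in each library (vertical axes from 0), with the mean of each genotype as a bar; filled points are libraries with Y-linked transcripts. Adam17 relative to Adam10 and the Timp2 share of the TIMPs are lower in all Pdgfra-Cre:LmnaF/F libraries, Adamts1 relative to Adamts5 is higher, and the Mmp2 share of the MMPs overlaps.

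The 23 members that were not tested had at most 41 counts in any library, or 4.28 CPM, and their counts often lay in a single library. Adam26a had 36 counts in Pdgfra-Cre:LmnaF/F library 3 and 0 in the other 7 libraries, and Adam18 had 24 in library 4 and 0 elsewhere. The 18 tested members outside the rule for naming members had log2 fold changes from -0.76 to 2.80 and an edgeR adjusted p of 0.364 or more.

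Genes that act with these families were examined as lists. Of 15 tested activators and inhibitors of the families, none passed the edgeR threshold, 3 were higher and 1 was lower at an unadjusted p under 0.05 (beside 6.24% and 5.65% of all genes). The one lower was Pcsk6, a convertase that cleaves precursor proteins outside the cell, at 2359 to 3113 CPM in WT and 1074 to 2005 CPM in Pdgfra-Cre:LmnaF/F libraries (log2 fold change -0.90, SE 0.23, edgeR adjusted p = 0.123), and the groups did not overlap. None of the 7 tested trafficking partners of ADAM10 and ADAM17 passed either limit, and the 2 with the lowest p were Tspan14 at -0.68 (SE 0.36) and Rhbdf1 at -0.34 on the log2 fold change scale.

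Of 17 tested membrane proteins that ADAMs shed, Il6ra was higher and Sdc3 lower at an unadjusted p under 0.05, a share near the 11.9% of all genes (log2 fold changes of 1.11 and -0.91, edgeR adjusted p = 0.365 and 0.166). Of 14 tested matrix substrates of ADAMTSs, 2 were higher and 4 lower at that limit (beside 6.24% and 5.65% of all genes), and none passed the edgeR threshold. The thrombospondins Thbs1 and Thbs2 were at 1.79 and 1.36 on the log2 fold change scale (edgeR adjusted p = 0.114 and 0.13), and both overlapped. Thbs1 was at 257 to 375 CPM in WT and at 741, 920, 2265 and 278 CPM in Pdgfra-Cre:LmnaF/F libraries, and without library 3 its log2 fold change was 1.09. Versican (Vcan), a substrate of Adamts1 and Adamts5, was at 616 to 1181 CPM in WT and 360 to 741 CPM in Pdgfra-Cre:LmnaF/F libraries, with overlap (log2 fold change -0.75, SE 0.28, edgeR adjusted p = 0.298). Of 3 other tested metzincins, Pappa, which cleaves insulin-like growth factor binding proteins, was higher at an unadjusted p under 0.05 (beside 6.24% of all genes), at 2.24 to 26.0 CPM in WT and 31.4 to 56.2 CPM in Pdgfra-Cre:LmnaF/F libraries, without overlap (log2 fold change 1.42, SE 0.51, edgeR adjusted p = 0.277). Bmp1 and Tll2, procollagen C-proteinase and a relative, overlapped at log2 fold changes of -0.39 and 0.69 (edgeR adjusted p = 0.498 and 0.704). The value of Tll2 came with 86.3 CPM in Pdgfra-Cre:LmnaF/F library 1. Libraries 2 to 4 were at 17.3, 13.0 and 13.7 CPM, against 12.8 to 32.6 CPM in WT.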

How the data were processed

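Strand-specific libraries of ribosome-depleted total RNA (RIN above 8) were sequenced by the authors as 150 bp paired-end reads, aligned to mm10 with HISAT2 and counted per gene with featureCounts and GENCODE annotation. The deposited values are whole-number counts per gene, 1 file per library, and the study names RUV normalization and DESeq2 for its own tests, which these counts do not hold. Counts were tested here with edgeR 4.0.16 (quasi-likelihood, TMM, filterByExpr, genotype only) under R 4.3.3, with Benjamini-Hochberg adjustment over the 13036 genes tested and a threshold of 0.05. The scripts were tested on simulated data. CPM used TMM-scaled library sizes, and RPKM divided CPM by merged exon length in kb (GENCODE M21, GRCm38), in which all 76 members were found. Log2 differences among libraries with or without Y-linked transcripts compare mean CPM plus 0.5 and have no test. Each sets 1 library of one genotype against 3 of the other. Marker lists were compared by exact permutation over the 70 ways to place 4 of 8 libraries in a group. Alternatives were DESeq2 1.42.0, limma-voom (limma 3.58.1), RLE factors, other filters, 1 RUVr factor, a replicate block, each library left out and, added later, Y-linked expression as a covariate.

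The members and lists were chosen with earlier results of these data known. Members were named if past the threshold, if the groups did not overlap, if among the 3 highest in RPKM or lowest in edgeR p of a family, or if on a list of known cardiac or fibroblast members. Adam1a, Adam1b, Adam18, Adam26a, Adamts3, Adamts6, Adamts14, Adamts15, Mmp1b, Mmp7, Mmp8, Mmp12, Mmp20 and Mmp27 were named outside that rule, after their values were seen, as were the ratios and shares within a library. Total counts were 2080555 to 12502949, and WT library 2 is the shallowest. The values of 1 gene of these lists are not reported here.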

Additional observations from a re-analysis of the deposited data

Results flagged for a closer look

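In each genotype, the highest or lowest of the 4 libraries was compared with the rest by Dixon's criterion at 95% for the CPM of named members with more than 10 counts in a library of that genotype and for the marker sums. Of 90 such groups with fewer than 3 libraries at 0, 12 stood out, where chance gives about 1 in 20. No explanation was tested for any of them.

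Among Pdgfra-Cre:LmnaF/F libraries, library 4 stood out for Adamtsl2 at 661 CPM (246 to 289 CPM in the others), for cardiac myocyte markers at 5699 CPM (296 to 886 CPM) and for macrophage and monocyte markers at 443 CPM (47.7 to 104 CPM). Library 2 stood out for Adam10 at 98.8 CPM (53.9 to 55.7 CPM). Mmp13, at 2.92 CPM in library 2 and 0 in the others, meets the criterion by construction and is not counted. Library 3 stood out for Mmp2 at 2479 CPM (2782 to 2799 CPM) and for the early response genes at 13182 CPM (7996 to 8841 CPM), and library 1 for erythroid markers at 650 CPM (14.7 to 41.4 CPM).

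Among WT libraries, library 2 stood out for Adamtsl2 at 1499 CPM (584 to 714 CPM) and for Timp1 at 38.2 CPM (18.5 to 19.9 CPM). Library 3 stood out for Adamts4 at 42.8 CPM (25.5 to 25.7 CPM) and for Adam33 at 4.95 CPM (0.503 to 0.841 CPM), and library 4 for Adamtsl3 at 500.1 CPM (380 to 391 CPM).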

How the results depend on the processing

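The number of members past the threshold was 0 in edgeR, with RLE factors, with at least 10 counts in every library, with 1 RUVr factor and with the replicate block, fits that called 0.276% to 0.621% of all genes. It was 7 with DESeq2 (2 higher, 5 lower, beside 2.15% of all genes), 6 with DESeq2 and 1 RUVr factor (2 higher, 4 lower, beside 2.7%), 3 with limma-voom (1 higher, 2 lower, beside 0.967%), 5 of 76 without a filter (2 higher, 3 lower, beside 1.45%) and 1, lower, with Y-linked expression as a covariate (beside 0.875%). Leaving out 1 library at a time gave 0 to 2 members (0 to 1 higher, 0 to 2 lower), namely Timp1 without Pdgfra-Cre:LmnaF/F library 3 (beside 0.125% of all genes) and Adamts15 and Adamtsl2 without library 4 (beside 0.565%), and these 8 fits called 0.096% to 0.565% of all genes. The members whose groups did not overlap numbered 7 to 14 with 1 library left out (beside 10.5% to 13.7% of all genes), 14 without Pdgfra-Cre:LmnaF/F library 2 (26.4%, beside 11.9% of all genes) and 12 without WT library 3 (22.6%, beside 13.7%), and with 3 against 4 libraries groups stand apart more often by construction. The median log2 fold change of the tested members was -0.24 with limma-voom, -0.21 with at least 10 counts in every library and -0.19 with the replicate block, and from -0.18 to 0.011 with 1 library left out. Over all genes tested the median ran from -0.032 to 0.10 across the fits. Libraries of the same replicate number showed no sign of pairing (correlations of deviations -0.030 to 0.040), and the block changed no call among members. Pairs of different numbers were not compared, so whether the numbers pair libraries is not settled.

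Of the 35 named and tested members, 9 had a log2 fold change that turned sign under some alternative. None of the 13 named members with an unadjusted p under 0.05 or with groups that did not overlap did. With limma-voom Adam9 was at -0.016, Adam33 at -0.24, Mmp9 at -0.62, Mmp14 at -0.12, Mmp16 at -0.040 and Timp4 at -0.45. Adam9 was at -0.0060 without a filter, Timp4 at -0.26 with the replicate block and Adamts5 at 0.11 with the Y-linked covariate. With 1 library left out, log2 fold changes ran from -0.15 to 0.20 for Adam10, -0.10 to 0.22 for Adam9, -0.14 to 0.075 for Adamts5, -0.15 to 0.11 for Mmp14, -0.058 to 0.68 for Mmp16, -0.11 to 0.60 for Mmp3, -0.12 to 1.05 for Mmp9 and -0.24 to 0.82 for Timp4. RLE factors turned no direction among them. In WT library 2, the shallowest, 2 counts of Mmp13 came to 1.01 CPM, so levels near 1 CPM rest there on few counts.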
